A study of Piriqueta cistoides subsp. caroliniana with 18 samples.

Results

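Leaves of the Piriqueta morphotype caroliniana were set against leaves of the morphotype viridis in plants that had been well watered. Caroliniana well-watered plants C1W, C2W and C3W (3 plants) and viridis well-watered plants V1W, V2W and V3W (3 plants) were chosen by the plant codes in the labels. These 6 plants are 6 of the 18 plants of the series, whose other 12 are well-watered hybrid plants and drought plants of the 3 morphotypes. All plants were raised from cuttings in sand in a greenhouse, and the labels name no transgene, mutation or agent in any group. The labels do not say whether the plants of a group are cuttings of 1 parent plant or of several, so the tests do not reach beyond these plants. The spread used in the tests was pooled over the arrays and plants of all 6 groups. The drought plants, taken through 4 drought cycles within 36 days, entered the fit of the loop but are not compared here.

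Caroliniana and viridis are the parental forms of the Piriqueta caroliniana complex, perennial herbs of the Turneraceae in Florida that hybridise where their ranges meet. The arrays carried soybean cDNA clones. RNA of Piriqueta thus bound to clones of a distant species, and a sequence that binds the clone less well cannot be told apart from a lower level of the transcript. The soybean gene symbol of a clone is given where one exists, and its role is that known from soybean or other plants.

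Each array compared a pair of plants, and 10 of the 18 arrays carried at least 1 of the 6 plants. Only 2 arrays paired the morphotypes directly, C2W with V1W and C3W with V2W, with the dyes exchanged. The other plants are linked through the closed loop of arrays, including 4 arrays that pair a well-watered parent with a well-watered hybrid. On these 4 arrays C1W and C3W met H3W, while V3W met H1W and H2W. No hybrid plant was shared, so the route through the hybrid also holds differences between hybrid plants. Arrays held 5962 to 8134 values, the fewest on the array of C1W and H3W. Values are the authors' log ratios of the channels, and they hold no level, so the leaf identity of the samples could not be checked against leaf markers. Differences are caroliniana minus viridis, in log-ratio units, with each ratio taken as Cy5 over Cy3. The labels give the dye of each plant but not the direction of the ratio, and the opposite reading would exchange the caroliniana and the viridis side of every difference below. The base of the logarithm is not given either.

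No probe passed an adjusted p of 0.05 between well-watered caroliniana and viridis leaves (limma, 0 of 7880 tested probes called, 0%). At an unadjusted p under 0.05 there were 186 probes, or 2.36% of those tested, with 101 on the caroliniana and 85 on the viridis side. The estimates nevertheless had a tail on 1 side. A difference over 0.5 was found for 35 probes on the caroliniana side and 1 on the viridis side, and one over 1 for 4 and 0 probes. Of the 35, only 17 had an unadjusted p under 0.05 (limma), and the 1 on the viridis side did not. Ordered by p, the first 16 probes all lay on the caroliniana side. Probes share the same plants and arrays, so neither these nor the 35 are separate observations. The size of 0.5 was chosen after the values were seen. Among the 5371 probes measured on all 18 arrays, the 3 caroliniana and the 3 viridis plants did not overlap for 175 (3.26%), with caroliniana higher for 89 (1.66%) and lower for 86 (1.6%).

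**Figure D1:**
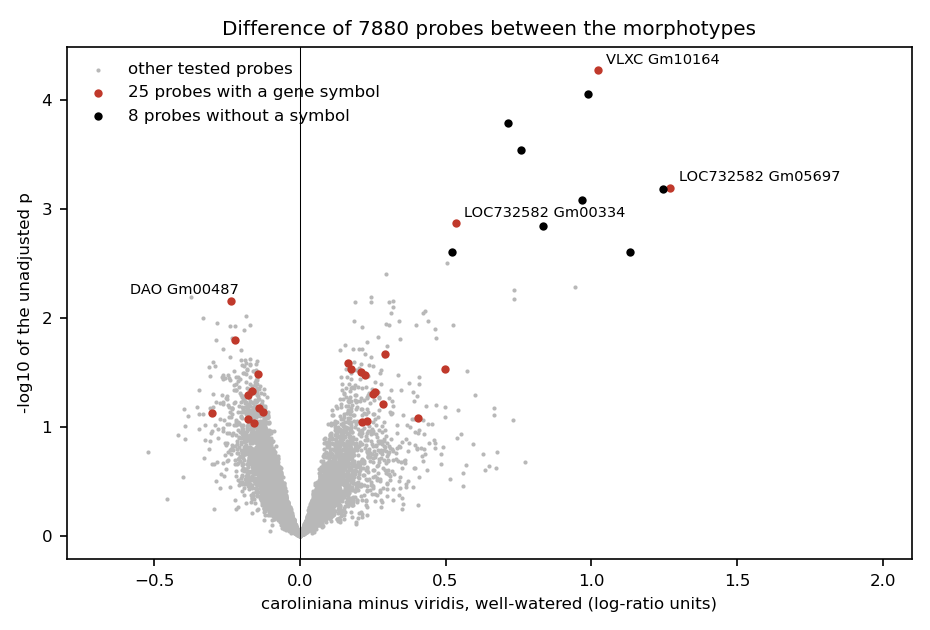
Difference between caroliniana and viridis well-watered plants (x axis, log-ratio units, caroliniana minus viridis) against the -log10 of the unadjusted p (y axis) for 7880 probes. Red points are the 25 probes with a gene symbol and the smallest p, black points 8 probes without a symbol. The points over 0.5 lie on the caroliniana side with 1 exception, and VLXC Gm10164 has the smallest p.

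The named probe with the strongest evidence was Gm10164, a clone of VLXC, a vegetative lipoxygenase. Lipoxygenases add oxygen to polyunsaturated fatty acids, the step from which oxylipins such as jasmonate are made. Its plant values, solved from the loop and centred on 0 over the 18 plants, were 0.01, 0.36 and 0.14 in caroliniana plants 1, 2 and 3, against -0.41, -0.93 and -0.73 in viridis plants 1, 2 and 3. All 3 caroliniana plants lay above all 3 viridis plants. The means were 0.17 ± 0.177 in caroliniana and -0.69 ± 0.266 in viridis (SD, n = 3 each). The fitted difference over the loop was 1.02 ± 0.187 (SE), with a 95% interval of 0.62 to 1.42. It did not pass the test over all probes (limma, adjusted p = 0.352).

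The direct array of C2W and V1W gave 0.98 for Gm10164, and that of C3W and V2W gave 0.86. The 4 arrays through the well-watered hybrid gave 1.23, on the same side as both direct arrays. This value also holds the differences between the hybrid plants on those arrays. A difference of 1.02 is 2.03-fold if the base of the logarithm is 2 and 2.78-fold if it is e. The probe passed under array quality weights without a plant effect (1.14, limma, adjusted p = 0.0105) and without caroliniana drought plant 2 (1.10, adjusted p = 0.0363). The other VLXC clone, Gm07581, had 0.02, 0.07 and -0.07 in caroliniana plants 1 to 3, against -0.05, -0.10 and -0.02 in viridis plants 1 to 3. Its difference was 0.01 ± 0.0607, with a 95% interval of -0.12 to 0.14, which does not overlap that of Gm10164. Gm10164 was picked by its p, which favours a large estimate, and the difference between the clones was not tested.

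The rest of the lipoxygenases lay close to 0. Among 13 tested probes of 7 lipoxygenase genes, 0 were called, 6 had a difference above 0 and 7 below, and the median was -0.01, the same at 2 decimals as the median of all tested probes. VLXB Gm05996, a further vegetative lipoxygenase, had -0.05, 0.03 and -0.08 in caroliniana plants, against -0.25, -0.18 and -0.22 in viridis plants. Its groups did not overlap, but the fitted difference of 0.18 ± 0.106 did not pass (limma, adjusted p = 0.982), and the direct arrays gave 0.42 and -0.03. The seed type lipoxygenase LOX3 had 4 probes between -0.16 and 0.02.

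LOC732582 had 3 tested probes, each with a fitted difference above 0. Its clone Gm05697 had the largest fitted difference of all 7880 probes, 1.27 ± 0.300 with a 95% interval of 0.63 to 1.91 (limma, adjusted p = 0.871). The plant values were 0.23, 0.25 and 0.16 in caroliniana plants 1, 2 and 3, against -1.03, -0.89 and -0.62 in viridis plants 1, 2 and 3, and the groups did not overlap. The SD was 0.0488 in caroliniana and 0.210 in viridis. Gm00334 had 0.14, 0.30 and -0.12 in caroliniana plants, against -0.09, -0.39 and -0.64 in viridis plants. Caroliniana plant 3 lay just below viridis plant 1 here, so the groups overlapped, and the difference was 0.53 ± 0.138. Gm01375 had 0.03, 0.64 and 0.38 in caroliniana plants, against 0.18, 0.28 and -0.14 in viridis plants, with 0.30 ± 0.230 and overlapping groups. The direct arrays gave 1.54 and 0.79 for Gm05697, 0.42 and 0.24 for Gm00334, and 0.42 and 0.13 for Gm01375. The route through the well-watered hybrid gave 1.33 for Gm05697 and 0.80 for Gm00334, but -0.09 for Gm01375. The files give no role for this gene.

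**Figure D2:**
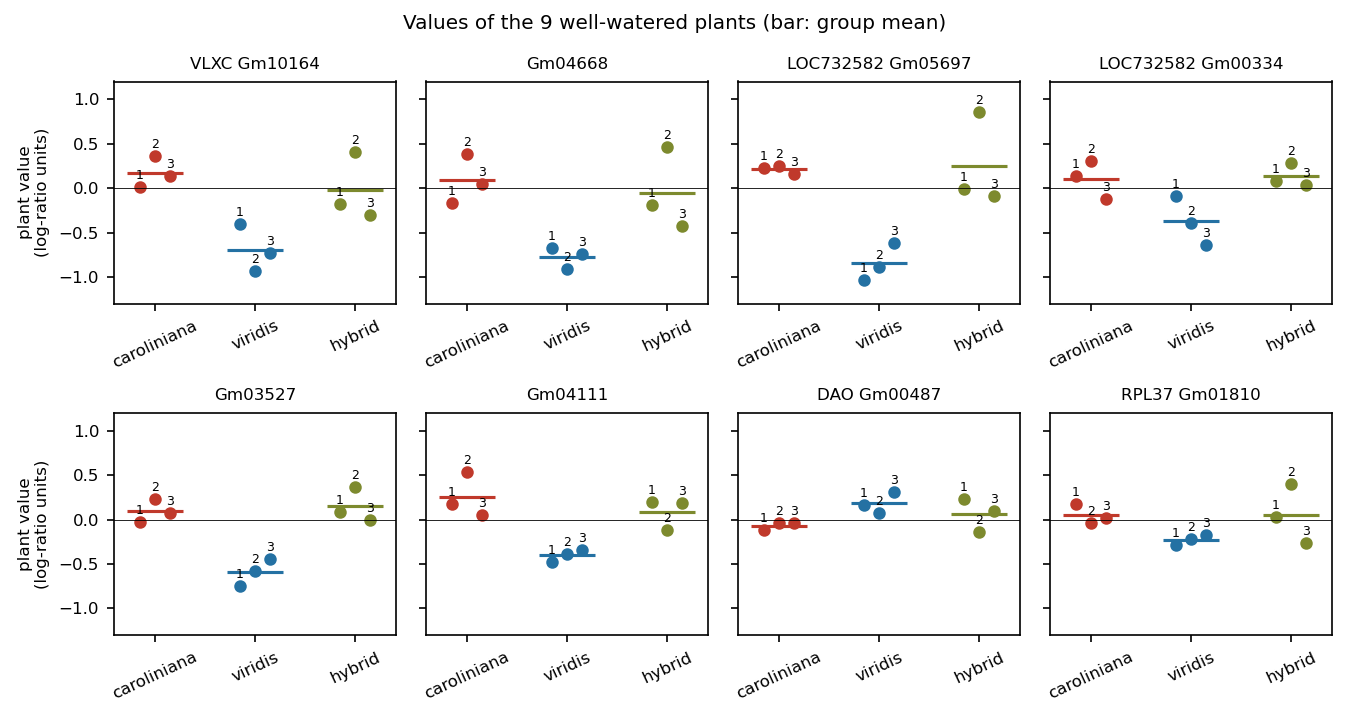
Plant values (y axis, log-ratio units centred on 0 over the 18 plants) of caroliniana, viridis and hybrid well-watered plants for 8 probes, with the plant number above each point and the group mean as a bar. For VLXC Gm10164, Gm04668, LOC732582 Gm05697, Gm03527 and Gm04111 the 3 caroliniana points lie above the 3 viridis points, and for DAO Gm00487 below them.

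Several clones without a gene symbol had differences as large. They were chosen after their values were seen, as the 8 such probes with the smallest p, and all 8 lay on the caroliniana side. Gm04668 had -0.17, 0.38 and 0.05 in caroliniana plants 1, 2 and 3, against -0.68, -0.91 and -0.75 in viridis plants 1, 2 and 3. Its difference was 0.99 ± 0.190 (limma, adjusted p = 0.352), and the direct arrays gave 1.17 and 0.85. Like VLXC Gm10164 it passed with quality weights (1.07, adjusted p = 0.0105) and without caroliniana drought plant 2 (1.11, adjusted p = 0.0112), and it also passed without caroliniana well-watered plant 1 (1.14, adjusted p = 0.0293). In the other refits it did not pass.

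Gm04111 had 0.18, 0.53 and 0.05 in caroliniana plants, against -0.48, -0.39 and -0.34 in viridis plants, with a fitted difference of 0.72 ± 0.146. Gm03527 had -0.02, 0.23 and 0.07 in caroliniana plants, against -0.75, -0.57 and -0.44 in viridis plants, with 0.76 ± 0.164. In neither did the groups overlap, and for Gm04111 the SD was 0.249 in caroliniana and 0.0691 in viridis. Gm08758 had 1.25 ± 0.296, Gm18680 had 1.13 ± 0.316, Gm08015 had 0.97 ± 0.236, Gm00955 had 0.83 ± 0.217, and Gm10243, measured on 16 arrays, had 0.52 ± 0.142. Of the 8, 7 were measured on all arrays, and in these 7 the groups did not overlap, which follows largely from the choice by p. The adjusted p of the 8 ran from 0.352 to 0.982.

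The fit of the 6 arrays on which both plants were well watered called 2 probes, Gm18680 (1.15 ± 0.0764, limma, adjusted p = 0.0270) and Gm18704 (1.10 ± 0.0836, adjusted p = 0.0301). With only 6 arrays the spread is poorly known. The direct arrays gave 1.58 and 0.68 for Gm18680, and 1.55 and 0.74 for Gm18704. Both were picked with their values in view. In the whole loop the SE of Gm18680 was 0.316, and Gm18704 had 0.95 ± 0.293 (limma, adjusted p = 0.982). The groups overlapped for Gm18704, with caroliniana plant 1 at -0.49 and viridis plant 1 at -0.46. Without caroliniana drought plant 2, Gm03527 (0.84), Gm08015 (1.11) and Gm08758 (1.40) passed as well, so that 5 probes were called.

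The 35 probes over 0.5 on the caroliniana side can be followed through the loop. Both direct arrays were available for 33 of them, and both lay on the caroliniana side for 29. The route through the hybrid lay on that side for 34 of the 34 that had one. That route also sets H1W and H2W against H3W, so it is not a comparison of the morphotypes alone. These routes are parts of the fit that gave the estimates, so the counts describe the estimates and are no second measurement. Of the 25 complete probes among the 35, 11 had all caroliniana plants above all viridis plants. Over all 5371 complete probes this held for 89 (1.66%). The 35 were chosen by the size of the same difference, so nothing is read from that count. The hybrid mean lay above the viridis mean for 22 of the 25 and above the caroliniana mean for 6. Hybrid well-watered plant 2 was the highest of the 9 well-watered plants for 13 of the 25. For VLXC Gm10164 the hybrid plants 1, 2 and 3 had -0.17, 0.40 and -0.31, between the means of caroliniana (0.17) and viridis (-0.69) except for plant 2.

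**Figure D3:**
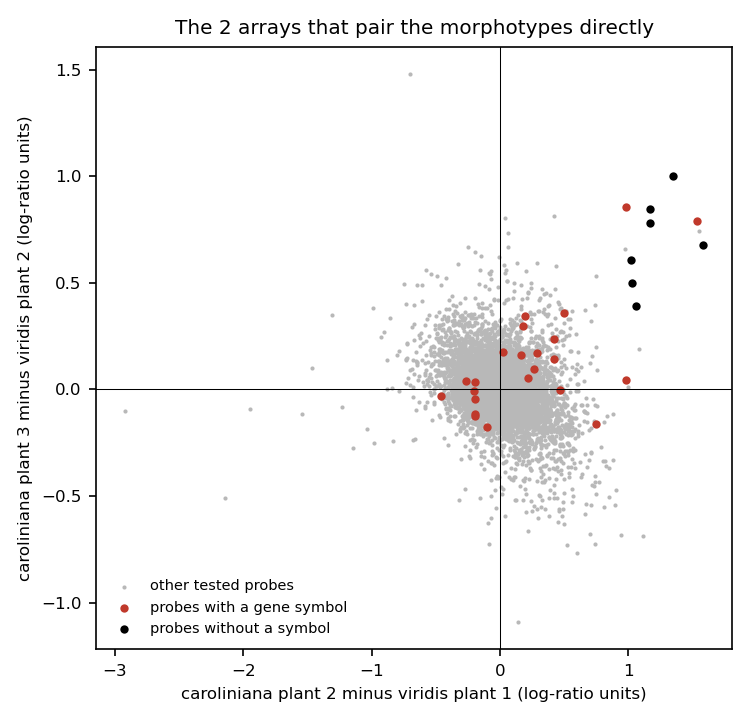
Log ratios of the 2 direct arrays, turned to caroliniana minus viridis, for tested probes with a value on both (x axis, C2W minus V1W, y axis, C3W minus V2W, log-ratio units). VLXC Gm10164, LOC732582 Gm05697 and clones without a symbol stand apart at the upper right, while most of the other probes spread from the upper left to the lower right.

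Across all probes the direct arrays did not run together. Turned to caroliniana minus viridis, they had a Pearson correlation of -0.258 across 7524 probes and lay on the same side for 39.8%. The mean of both arrays was past 0.5 with the same sign on each for 20 probes on the caroliniana and 9 on the viridis side. After the mean over the 18 arrays, which holds the dye effect of a probe, was taken off each of the 5371 complete probes, the correlation was 0.0691. The arrays share no plant, but probes are not independent replicates and share array and dye. The array of C3W and V2W had the smallest spread of the 18 arrays (SD 0.152), against 0.245 for that of C2W and V1W.

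On the viridis side the differences were small. DAO Gm00487 had -0.12, -0.04 and -0.04 in caroliniana plants 1, 2 and 3, against 0.16, 0.07 and 0.31 in viridis plants 1, 2 and 3. The groups did not overlap, and the difference was -0.24 ± 0.0768 (limma, adjusted p = 0.982). The other DAO clone, Gm01894, had 0.03 ± 0.0595. PRX2B Gm02806 had -0.09, -0.05 and 0.03 in caroliniana plants, against 0.10, 0.09 and 0.13 in viridis plants, again without overlap, with -0.16 ± 0.0755. The single probe past 0.5 was LOC547801 Gm04704, chosen after its value was seen, at -0.52 ± 0.361, with a value on only 1 of the direct arrays.

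No transcription factor was called. Of 33 tested probes for 29 genes, 24 had a difference below 0 and 9 above, and the median was -0.06, against -0.01 over all tested probes, of which 4292 were below 0 and 3588 above. Only MYB57 and HDL56, which lay on opposite sides, had a probe with an unadjusted p under 0.05. MYB57 had -0.22 ± 0.0820 (limma, adjusted p = 0.982) and was measured on only 1 direct array (-0.26). NAC2, of the NAC family of plant regulators, had -0.13, 0.05 and 0.22 in caroliniana plants, against 0.12, 0.43 and -0.04 in viridis plants, with -0.18 ± 0.0975. BZIP117, a leucine zipper factor, had -0.13 ± 0.0663. HDL56, a homeodomain leucine zipper factor, lay on the other side with Gm07531 (0.25 ± 0.118) but not with its second clone Gm03346 (-0.08 ± 0.0840). EREBP1, a protein that binds ethylene-responsive elements and was not in the list, had -0.30 ± 0.159 for Gm04643 and 0.05 ± 0.0588 for Gm01568. Its caroliniana plants ran from -0.29 to 0.67 and its viridis plants from -0.11 to 0.81, a spread larger than the difference.

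No enzyme that removes peroxide or superoxide was called. Of 8 tested probes for 6 genes, 6 were above 0, with CAT1 and PRX2B below, and the median was 0.10, against -0.01 over all tested probes, of which 3588 of 7880 were above 0. APX1, the ascorbate peroxidase that removes hydrogen peroxide, had 3 clones. Gm05083 had -0.20, 0.19 and 0.13 in caroliniana plants 1, 2 and 3, against 0.02, -0.07 and -0.46 in viridis plants 1, 2 and 3, with a difference of 0.21 ± 0.0894. Gm02338 had -0.43, 0.25 and 0.28 in caroliniana plants, against -0.17, -0.15 and -0.39 in viridis plants, with 0.41 ± 0.219. Caroliniana plant 1 was lowest of its group in both clones and lay among or below the viridis plants. Gm05712 had 0.08 ± 0.151, but -0.26 and -0.06 on the direct arrays, and its difference ran down to -0.14 with 1 plant left out. The catalase CAT5 had 0.28 ± 0.315 and the catalase CAT1 -0.06 ± 0.211. The adjusted p of all APX1 and catalase clones was 0.982 or above.

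Light-harvesting genes had wide intervals. All 4 clones of CAB3, a chlorophyll a/b-binding protein, were above 0, at 0.68 ± 0.470, 0.52 ± 0.483, 0.30 ± 0.228 and 0.26 ± 0.232, and none passed (limma, adjusted p = 0.982 each). In the same order, the direct array of C2W and V1W gave 0.34, 0.30, 0.32 and 0.32. That of C3W and V2W gave only 0.06, -0.04, -0.08 and -0.0001, and the route through the hybrid 0.07, 0.32, 0.34 and 0.21. Gm06115 had -0.36, -1.25 and -0.48 in caroliniana plants 1, 2 and 3, against -1.60, -0.45 and -0.96 in viridis plants 1, 2 and 3. Gm05985 had -0.67, -0.84 and -0.34 in caroliniana plants, against -1.08, -0.34 and -1.40 in viridis plants. The groups overlapped in both clones, and plants of 1 morphotype differed by more than the means did. PSAD, a subunit of photosystem I, had 0.15 ± 0.123 and -0.05 ± 0.0874. For the 6 probes together the median was 0.28, against -0.01 over all tested probes, and 0 were called.

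The chlorophyll synthesis genes did not separate the morphotypes. CHLH, the subunit H of magnesium chelatase, had 0.26 ± 0.251 for Gm06047, whose plants ran from -0.78 to 0.73 in caroliniana and from -0.84 to 0.10 in viridis. Its other clone Gm06139 had -0.33, -0.47 and -0.39 in caroliniana plants, against -0.45, -0.33 and -0.24 in viridis plants, with -0.08 ± 0.138. HEMB, the aminolevulinate dehydratase, had 0.16 ± 0.119 and GSA1, the glutamate-1-semialdehyde aminotransferase, -0.04 ± 0.0843. Of the 4 tested probes 0 were called.

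**Figure D4:**
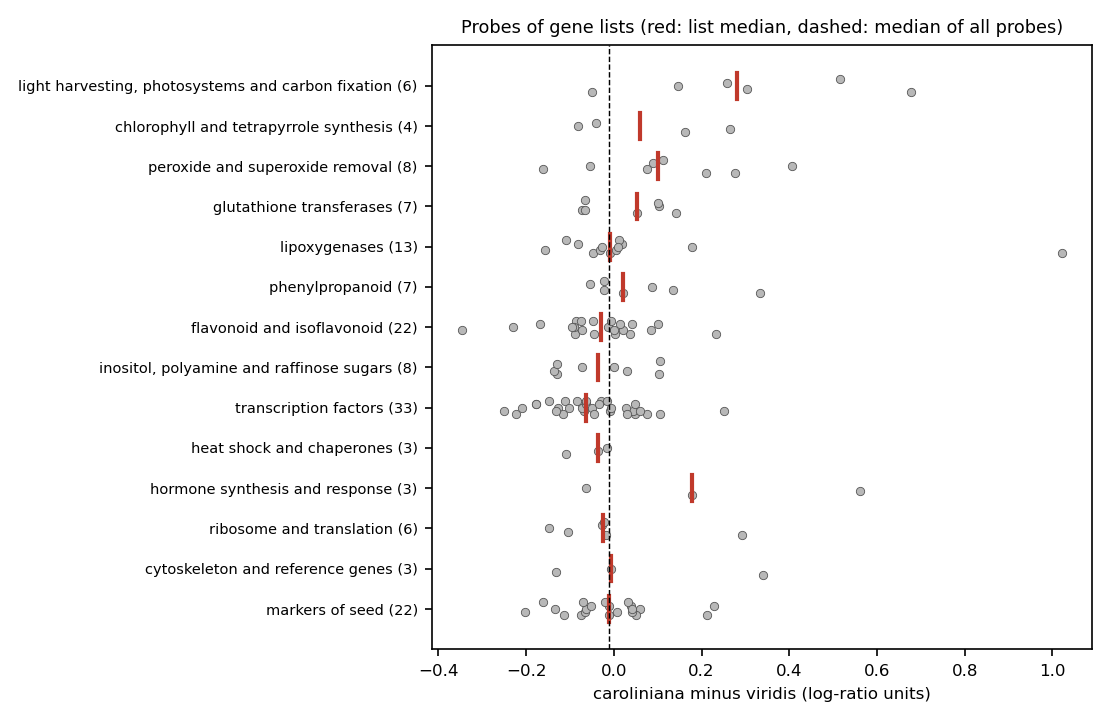
Fitted differences (x axis, caroliniana minus viridis, log-ratio units) of the probes of each gene list with at least 3 tested probes (number in brackets). The red bar is the list's median and the dashed line the median of all tested probes, -0.01. VLXC Gm10164 is the lone point above 1.

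Phenylpropanoid and flavonoid genes gave values of either sign, from -0.35 to 0.33. CYP98A2, a cytochrome P450 that makes phenylpropanoids, had 0.33 ± 0.199 for Gm08062, with -0.05, 0.12 and -0.73 in caroliniana plants, against -0.17, -0.95 and -0.74 in viridis plants. Its other clones had -0.05 and -0.02. Of the 7 phenylpropanoid probes 0 were called, and their median was 0.02. The flavonoid and isoflavonoid list held 22 tested probes of 10 genes. Of these 0 were called, 14 were below 0 and the median was -0.03. Symbol matching also admitted CYP93E1 (-0.08 and 0.02), whose place in this pathway was not checked. CHS1, the chalcone synthase that opens the flavonoid pathway, had all 3 clones below 0, at -0.35 ± 0.201, -0.23 ± 0.157 and -0.10 ± 0.158. CHI3A1, a chalcone isomerase, had 0.75 on the array of C2W and V1W but -0.16 on that of C3W and V2W, with a fitted difference of 0.23 ± 0.128. Without viridis well-watered plant 1 it was -0.03.

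Inositol and polyamine genes had a range of -0.14 to 0.10 over 8 probes, of which 0 were called. The 3 clones of MIPS, the myo-inositol-3-phosphate synthase, all lay below 0, at -0.13 ± 0.0746, -0.14 ± 0.0991 and -0.13 ± 0.179. For SAMDC, the S-adenosylmethionine decarboxylase of polyamine synthesis, the 4 clones lay between -0.07 and 0.10. Among 7 glutathione transferase probes 0 were called, the median was 0.05, and GSTF5 Gm01714 had the largest value, 0.14 ± 0.108. The aquaporin PIP2-6 had 0.13 ± 0.141 and the cell wall invertase CWINV -0.03 ± 0.0576.

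RPL37, a protein of the large ribosomal subunit, had 0.17, -0.04 and 0.02 in caroliniana plants 1, 2 and 3, against -0.29, -0.21 and -0.17 in viridis plants 1, 2 and 3 for its clone Gm01810. The groups did not overlap and the difference was 0.29 ± 0.115, but its other clones had -0.03 and -0.02. Of the 6 ribosome and translation probes 0 were called, with a median of -0.03. The 3 probes of BIP4, a chaperone of the endoplasmic reticulum, lay between -0.11 and -0.02. ACS1, a synthase of the ethylene precursor, had 0.56 ± 0.579, with caroliniana plants at 1.83, -0.14 and -1.78, against viridis plants at 0.12, -1.49 and 0.79. The direct arrays gave -0.41 and -0.14 for it and the route through the hybrid 2.88. Its hybrid plants 1, 2 and 3, which enter that route, had 1.33, 1.58 and -2.18. The auxin-induced AUX22 had 0.18 ± 0.106 and -0.06 ± 0.123.

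GAPC1, a glyceraldehyde-3-phosphate dehydrogenase used as a reference gene, had 0.34 ± 0.225 and -0.13 ± 0.127, and the tubulin TUBB3 -0.01 ± 0.149. KTI3, a trypsin inhibitor, had -0.04 ± 0.0729 and SGF14M, of the 14-3-3 family, -0.08 ± 0.106. SAT1 had 0.17 ± 0.0729, with direct arrays at 0.03 and 0.17. Among markers of other tissues, 22 seed probes of 11 genes had a median of -0.01 and a range of -0.20 to 0.23, and the 2 probes of the nodule gene NOD33 had 0.08 and -0.08. None of these were called. The lists of vascular, guard cell and trichome markers matched no symbol.

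Of the 25 probes with a symbol and the smallest p, 15 lay on the caroliniana and 10 on the viridis side, and 0 passed the test. They belong to 23 genes. The direct arrays both showed the side of the fit for 19 of the 23 that had both, and 24 of the 25 kept their sign without each of the 18 plants, the exception being CHI3A1. Over all 7524 probes with both direct arrays, these had the same sign for 39.8%. The 25 were chosen by the p of the same fit, whose arrays the refits reuse, so nothing is read from these counts. Not described so far are H4, histone H4, with 0.28 ± 0.141, PM30, a seed maturation protein, with 0.21 ± 0.116, and NRP-A Gm09103, of an asparagine-rich protein, with -0.18 ± 0.0840. The other NRP-A clones had 0.03, -0.05 and -0.02, and the other H4 clone 0.10. HRBP1 Gm05660 had -0.14 ± 0.0615 and its other clone 0.01. Of the LOC numbers, for which no role is given here, LOC547729 had 0.26 ± 0.120 and LOC547630 -0.14 ± 0.0722. LOC547752 had 0.22 ± 0.0948 for Gm01691 and 0.37 ± 0.355 for its other clone. LOC100101868 had 0.16 ± 0.0670 for Gm01104, while its other clones had 0.04 and 0.02. LOC547605 had 0.50 ± 0.208 for Gm06129, 0.30 ± 0.181 for Gm06021 and 0.13 ± 0.127 for Gm06119, but -0.14 ± 0.0971 for Gm10894, which lay on the viridis side on both direct arrays. LOC547605 Gm06129 had 0.27, 0.15 and 0.29 in caroliniana plants, against -0.62, 0.04 and -0.58 in viridis plants. Viridis plant 2 lay near the caroliniana plants, and the direct array that carries it gave 0.04, against 0.98 on the other.

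**Figure D5:**
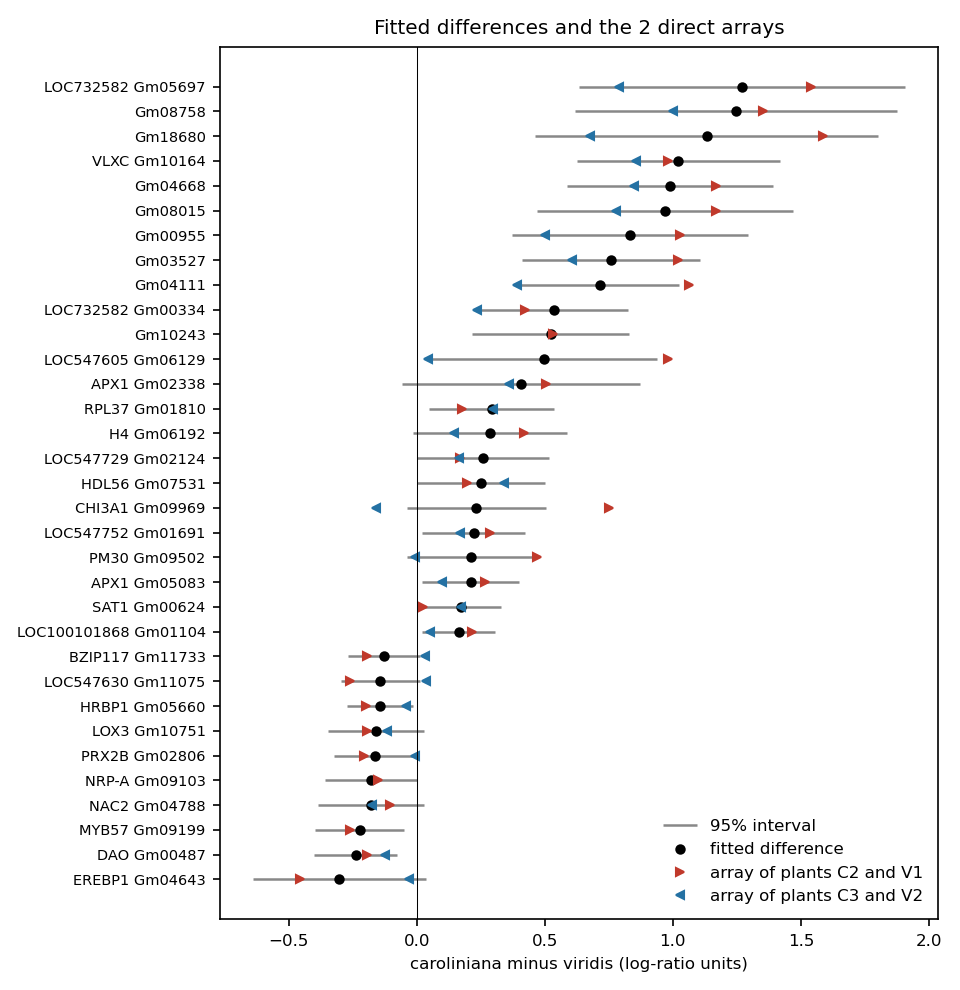
Fitted differences (black points, x axis, caroliniana minus viridis, log-ratio units) with 95% intervals for the 25 probes with a symbol and 8 without, and the log ratios of the 2 direct arrays (triangles). The 11 probes at the top, among them VLXC Gm10164 and the LOC732582 clones Gm05697 and Gm00334, have intervals above 0.2 throughout.

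The precision of the comparison can be read from the intervals. The 95% interval of a probe had a median half-width of 0.212 log-ratio units, with its lowest and highest decile at 0.145 and 0.357. The interval lay wholly within 0.5 of 0 for 7106 probes, or 90.2%, and within 0.25 for 2833 probes, or 36.0%. For most clones a difference of 0.5 was thus outside the interval, while a difference of 0.25 was not. These intervals are not adjusted for the number of probes.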

How the data were processed

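The 18 arrays, each with Cy5 and Cy3, compared leaf RNA of 18 plants. The authors deposited 1 log ratio per probe and array, with channel 1 in Cy5 and channel 2 in Cy3 per the labels. Whether the deposited ratios are log2 or have another base is not given in the sources used here, so differences stay in log-ratio units. The direction of the ratio and the normalisation are not given either, and channel intensities were not analysed here. Missing values were not filled in. With the sign of any single array turned, the residuals grew (sum of squares 1.01 to 1.37 times as large).

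A test needed values on 14 arrays or more (7880 of 9600 probes, of which 1424 had none). The supplied soybean table lists 552 probes, of which 546 have 1 symbol, 6 have several and stayed unnamed, and 9048 probes are not listed. A symbol was available for 467 tested probes of 309 genes, with a LOC number only for 150 of these probes. The model per probe held the 6 group means, the dye and a random plant effect (ratio of plant to array variance 0.25), solved by generalised least squares. Variances were moderated with limma 3.58.1 in R 4.3.3 (prior df 3.95), p-values were two-sided and adjusted by Benjamini-Hochberg over all tested probes, and a probe was called at an adjusted p under 0.05. The fit was also run on simulated data, and no outcome of that run is reported here. Plant values were solved from the loop for complete probes. They carry array error along the loop, so their SDs are not those of independent measurements, and the difference of their means can depart from the fitted one. Figures used matplotlib 3.10.9 in Python 3.11.15.

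The groups, gene lists and alternatives were chosen with earlier results of these data known. With no called probe, the rule named the 25 probes with a symbol that had the smallest p, and of each list the member with the smallest p. Lists were matched by symbol, and PMM and ARF were left out as ambiguous. No set test was run. The number of arrays limits the precision.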

Additional observations from a re-analysis of the deposited data

How the results depend on the processing

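The count of called probes was 0 as reported, and also 0 with no plant effect, without the array whose title is marked BAD, after median centring, after scaling to 1 spread, with a minimum of 12 arrays, with complete probes only, with no dye term and with a replicate block for the plant number. It was 0 too in both alternatives added after seeing the data, which left out the array with the fewest values, or H2W together with V3D. It was 2 with quality weights and 2 with well-watered arrays only. With 1 plant left out it ran from 0 to 5, being 5 without caroliniana drought plant 2, 1 without caroliniana well-watered plant 1 and 0 without each of the other 16 plants. At an unadjusted p under 0.05 there were 186 probes as reported, 406 with no plant effect, 696 with quality weights, 282 with no dye term, 128 without the array with the fewest values, and 106 to 307 with 1 plant left out. The replicate block gave 194 such probes, a smallest adjusted p of 0.137 and no changed call. The labels do not say that a plant number marks a shared source. Deviations of caroliniana and viridis plants of the same number correlated at -0.243, -0.542 and -0.343 across 5371 probes. C2W with V1W and C3W with V2W, which share an array, had 0.648 and 0.701, and C1W with V3W had 0.377. Plants on 1 array share its error in these values, so the correlations cannot decide whether plant numbers pair the plants. CHI3A1 was reversed without viridis well-watered plant 1 (-0.0278) and ran up to 0.417 with 1 plant left out. It also lay below 0 on the route through the hybrid (-0.0758). The other 32 probes of the plot of intervals kept their sign in every refit listed here and on both partial routes where these gave a value. They were chosen by p, and the refits and routes reuse the same arrays, so nothing is read from that count. The cause of the changes between the alternatives was not tested.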
